A study of Mus musculus with 5 samples.

Results

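The genes described here carry fatty acids into the heart muscle cell and burn them in its mitochondria. They were chosen by name, as 38 listed symbols of the fatty acid route, out of 17818 gene symbols measured. All 38 had a row in the table, and all 38 had 1 CPM or more in 2 or more libraries, the filter for testing (CPM is the count scaled to the library total). Messenger RNA was sequenced from whole hearts of male mice after a bone marrow transplant, in a study of oridonin, a plant diterpenoid, and of blood cells that carry a Tet2 mutation. The TET2 protein oxidises methylated cytosine in DNA. The 3 groups were a wild-type (WT) control given vector (1 library), animals of genotype Tet2+/- given vector (2 libraries) and animals of that genotype given oridonin (2 libraries). Hearts of all groups were collected 12 months after the transplant, with 2 months of treatment. The strain, the age, the number of animals behind a library and whether donor or recipient carried the Tet2 allele are not stated in the labels.

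As background, the adult heart draws most of its energy from long-chain fatty acids. Lipoprotein lipase frees them from circulating lipoproteins, CD36 and related carriers bring them into the cell, and acyl-CoA synthetases activate them. The carnitine shuttle moves them into mitochondria, where the beta-oxidation cycle shortens them and hands electrons to the respiratory chain through the electron transfer flavoprotein. The nuclear receptor PPAR-alpha, bound to fatty acids, switches on many of these genes together with its coactivator PGC-1-alpha, and malonyl-CoA, made by the enzyme that Acacb encodes, slows the shuttle.

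Library totals lay between 14574823 and 15535778 counts, so that a floor of 3 counts corresponded to 0.193 to 0.206 CPM. Each deposited Tet2 column was a blend of both replicates of its group, which was undone before levels were computed. The WT column was used as deposited. It gave whole counts for 33.5% of genes, so it too may be a blend, with a second set of values that is not a column of the table. This was not tested, and whether such a set came from another heart is not known here. Each WT level below is that of the column as deposited, which may not be that of a single library. Replicate spread could be measured in the Tet2 groups alone, and the single WT library was assumed to vary by as much. Because the labels do not say whether replicates were separate animals, the p-values cover only the spread between these samples, which may be technical.

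Per kilobase of transcript, the fatty acid genes differed widely in level. Fabp3, which encodes the fatty acid binding protein of heart muscle, was highest, with a median over the 5 libraries of 4065 CPM per kb and a range of 3373 to 5239. Lpl, encoding lipoprotein lipase, followed at a median of 1339 CPM per kb. Next came Hadhb, Acaa2, Acadm and Acadl, all of the beta-oxidation cycle, and then Cd36, with medians between 521 and 732 CPM per kb. Hadhb was above Acaa2 in all 5 libraries, while the order of Acaa2, Acadm, Acadl and Cd36 differed from library to library. The lowest were Ucp3 (10.9 CPM per kb), Ppara (8.44), Acot1 (4.50), Angptl4 (1.23) and Cpt1b (0.53). Angptl4, which encodes a secreted inhibitor of lipoprotein lipase, and Cpt1b were the only members that a filter at 5 CPM removed.

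**Figure D1:**
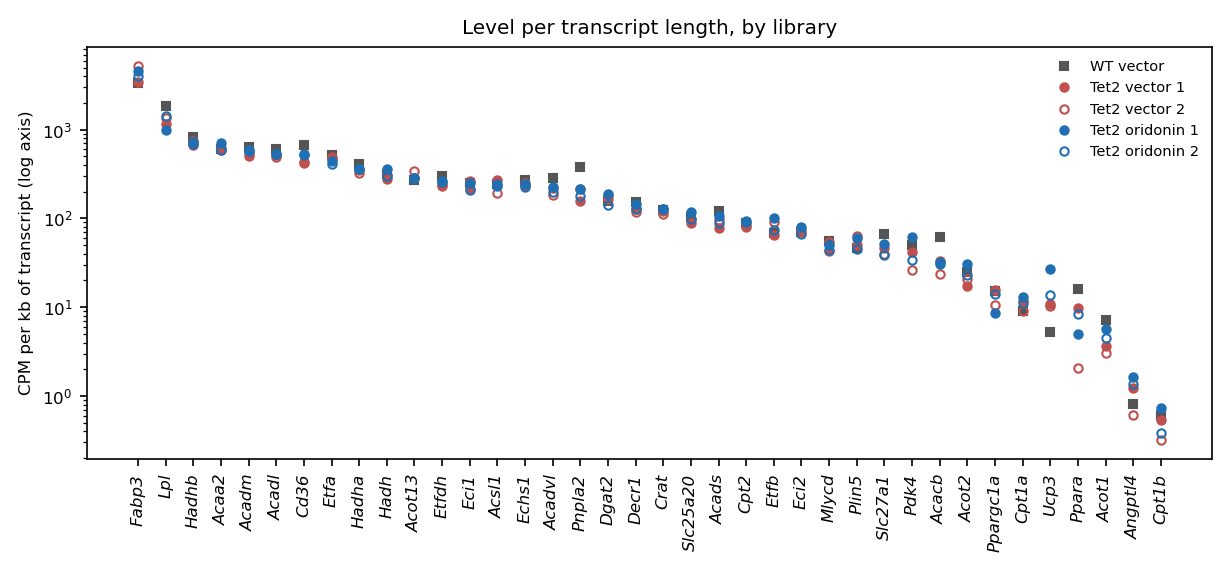
Level of each of the 38 genes in CPM per kilobase of principal transcript (log axis), with 1 point per library and genes ordered by their median. Fabp3 and Lpl stand highest and Cpt1b lowest, and for most genes the 5 libraries lie close together, while Ucp3, Ppara and Acacb spread widely.

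Promoters were searched because PPAR-alpha binds, with its partner RXR, a direct repeat of AGGTCA with 1 base between the copies, called DR1. RefSeq promoters (GRCm38.p6, 250 bases before to 50 after a start) were matched for 30 of the 38 genes, as 34 windows. An exact DR1 on either strand was found in 0 of them, as in 0.0396% of 32851 mouse promoters. With up to 1 letter of the repeat changed, 0 of the 34 windows had a match, against 0.554% of all promoters. With up to 2 letters changed, 5 of the 30 genes had a match, against 3.49% of 9862 tested genes. Counted by window, that was 5 of the 34, against 3.86% of all promoters. The 5 matches are shown because they include Ucp3 and Cd36, which are among the genes with the lowest p in the comparisons below. Lower-case letters mark the base between the copies and the changed letters, and each match is written in the direction in which the repeat reads.
Ucp3: AGGTttcAGGTCA
Cd36: AaGTCAgAGGcCA
Etfa: AGGgCAaAGGTaA
Echs1: AGGTCAcgGGTCc
Slc25a20: AGGTgAaAGGTCg

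The match lies 51 bases before the start in Ucp3, 63 in Cd36 and 77 in Etfa. The 250 bases before the RefSeq starts of Ucp3 (chr7:100472741-100472990, plus strand) and Cd36 (chr5:17835897-17836146, minus strand) are given in full, with the match in capitals. In Cd36 it reads on the opposite strand.
Ucp3: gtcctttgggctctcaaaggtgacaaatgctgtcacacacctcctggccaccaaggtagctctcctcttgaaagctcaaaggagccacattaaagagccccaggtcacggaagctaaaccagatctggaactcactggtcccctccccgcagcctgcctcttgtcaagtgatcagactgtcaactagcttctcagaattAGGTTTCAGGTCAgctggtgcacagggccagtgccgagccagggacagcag
Cd36: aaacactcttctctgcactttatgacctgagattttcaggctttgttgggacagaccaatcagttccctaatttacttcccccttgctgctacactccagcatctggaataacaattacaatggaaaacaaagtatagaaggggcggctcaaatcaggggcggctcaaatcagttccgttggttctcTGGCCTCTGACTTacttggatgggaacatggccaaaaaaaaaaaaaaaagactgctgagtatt
These are matches of letters and not binding sites. The element TCAAGGTCA, read by estrogen-related receptors, was found on either strand in 0 of the 34 windows and in 0.423% of all promoters.

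The first comparison set the Tet2 vector hearts against the WT heart, which asks how hearts of the mutant transplant group differ in this route. No gene passed an FDR of 0.05 in limma, neither a fatty acid gene nor any of the 12734 genes tested (0% called in either direction), and limma's voom gave the same count of 0. The group means of 28 of the 38 genes lay below WT, where 49.6% of all genes did, and those of 10 lay above it, where 50.4% did. The median log2 fold change was -0.22 over the 38 genes and 0.00 over all genes tested. Both vector libraries lay below the WT library for 25 genes and above it for 5. Over all genes those shares were 32.3% and 35.3%. At an unadjusted p under 0.05, 6 fatty acid genes were lower, Acacb, Pnpla2, Cd36, Acot1, Acadvl and Slc27a1, and 0 were higher. The background is 4.53% of all genes lower and 5.06% higher. The smallest adjusted p among the fatty acid genes was 0.335, for Acacb (limma). Scaling moved the list's median, to -0.13 with the mitochondrial genome left out of the library total and to -0.09 after quantile normalization. In the first of these the median of all genes moved as well, from 0.00 to 0.10. In bulk tissue, fewer cells of a type and less RNA per cell cannot be told apart.

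**Figure D2:**
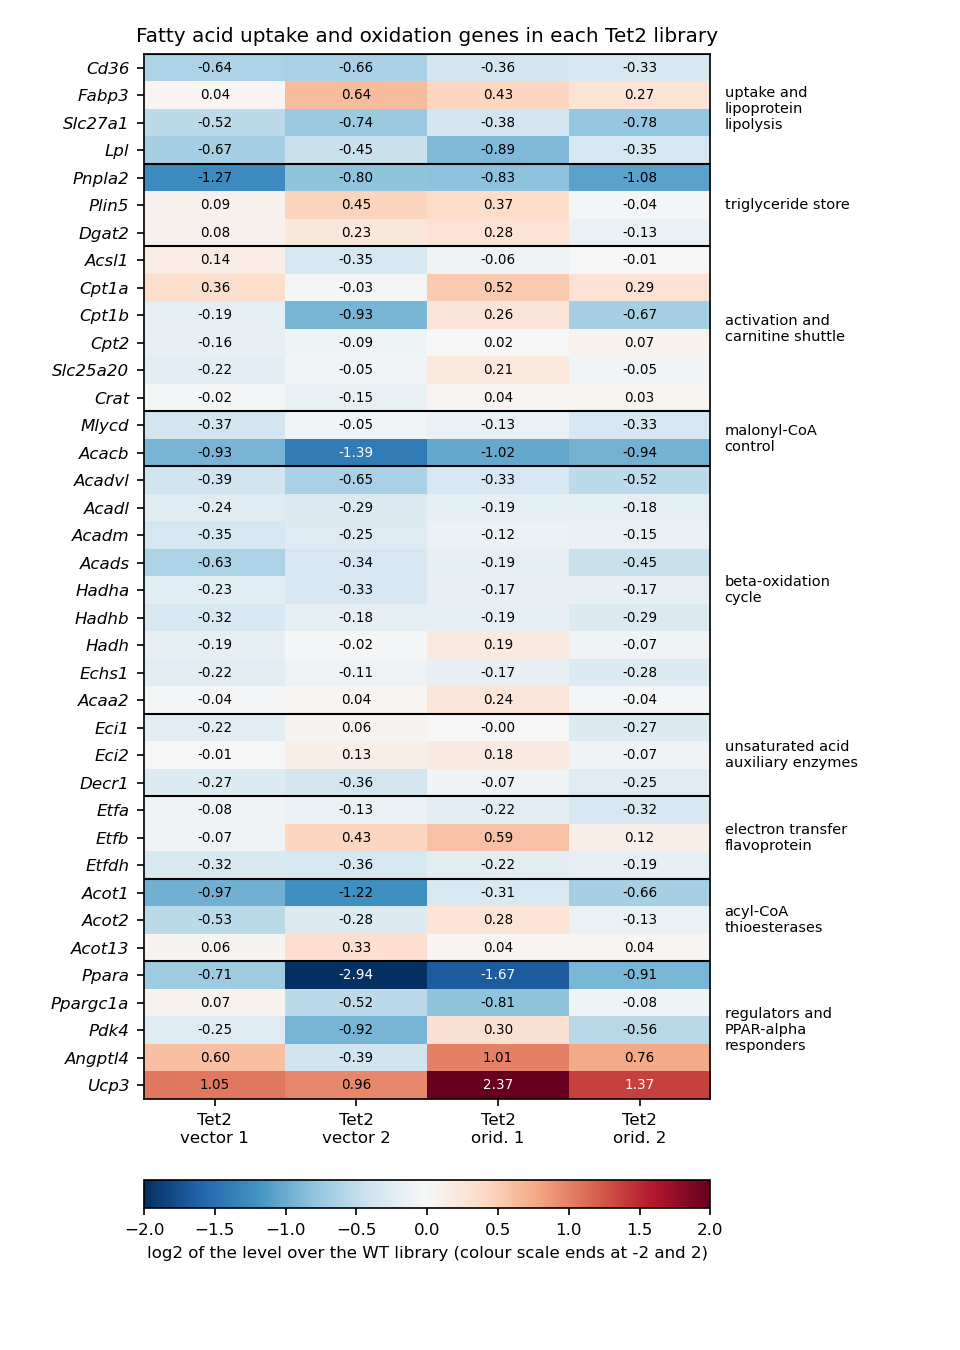
Log2 of the level over the WT library for each of the 38 genes (rows, grouped by role) in each Tet2 library (columns), with blue below and red above WT. The rows of Pnpla2, Acacb, Acot1, Cd36 and Ppara are blue in all 4 libraries, and the row of Ucp3 is red in all 4.

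The second comparison set oridonin against vector within the Tet2 hearts, the treatment question of the study. It shares the vector libraries with the first comparison, where they enter with the opposite sign. Lower with vector than in WT and higher with oridonin than with vector are therefore not independent results. How many of all genes had oridonin between vector and WT was not counted. Again no gene passed the FDR in limma, 0 of the 38 and 0 of all genes (0% in either direction), and voom gave 0 as well. Here 28 genes had a higher group mean with oridonin and 10 a lower one, where 40.2% and 59.8% of all genes did. The median log2 fold change was 0.12 over the 38 genes against -0.05 over all genes tested. Both oridonin libraries lay above both vector libraries for 13 genes and below them for 2, against 8.37% and 17.8% of all genes. At an unadjusted p under 0.05 there was 1 gene, Ucp3, higher with oridonin, and 0 lower (0.668% and 1.93% of all genes). This pattern leaned on 1 library. Without oridonin replicate 1 the median was 0.05 and 22 genes were higher, where 50.1% of all genes were. The split of all genes moved with the scaling too, to 51.0% higher with median-of-ratios scaling and 52.7% after quantile normalization, with 31 and 28 of the fatty acid genes higher.

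Set against the spread, the treatment difference was small for most genes. The median gap between the group means was 0.16 on the log2 scale. The median gap between replicates was 0.24 in the vector group and 0.25 in the oridonin group. For 9 of the 38 genes the gap between groups was larger than both gaps between replicates, as it was for 17% of all genes tested. These were Cd36, Cpt2, Acadl, Acadm, Hadha, Etfa, Etfdh, Acot1 and Acot2. Among the 9, only Etfa was lower with oridonin.

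**Figure D3:**
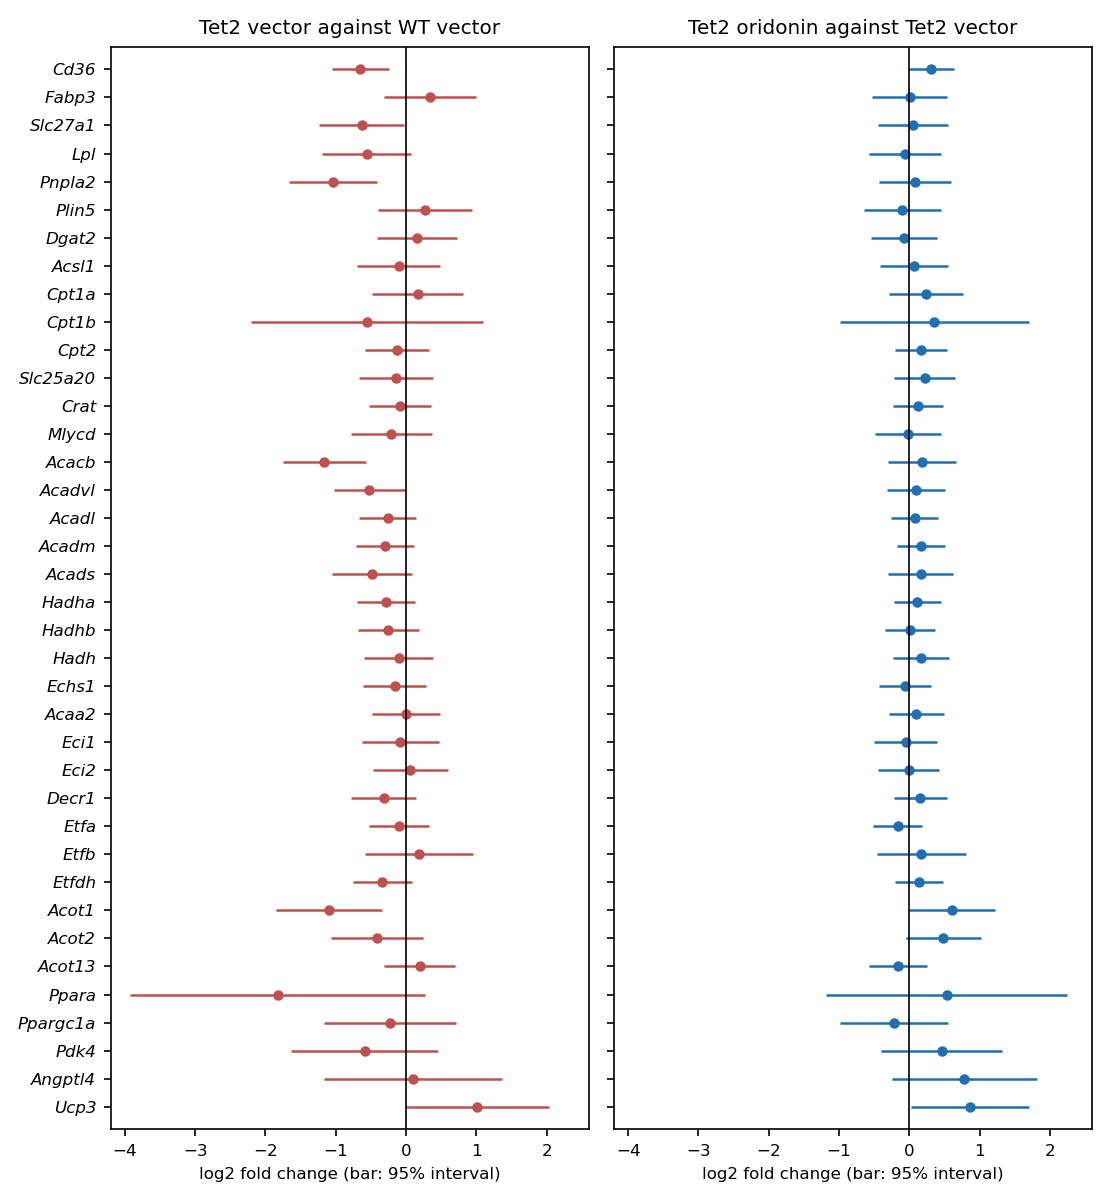
Log2 fold change of each of the 38 genes with its 95% interval from limma, for Tet2 vector over WT (left, red) and for oridonin over vector (right, blue). On the left the intervals of Acacb, Pnpla2, Cd36, Acot1, Acadvl and Slc27a1 lie below 0, and on the right that of Ucp3 alone lies above 0.

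The third comparison set oridonin against WT, and it shares its libraries with both others. No gene passed the FDR in limma (0% in either direction) or in voom. The means of 23 fatty acid genes lay below WT and of 15 above, where 56.3% and 43.7% of all genes did, with medians of -0.15 for the 38 and -0.06 for all genes. Both oridonin libraries were below WT for 21 genes and above it for 8, against 41.8% and 31.9% of all genes. The unadjusted p was under 0.05 for Ucp3, which was higher, and for Acacb and Pnpla2, which were lower (2.68% of all genes higher, 3.56% lower). After quantile normalization the median was -0.000619 with 19 genes to each side, and without the mitochondrial genome in the total it was -0.04, where the median of all genes moved from -0.06 to 0.05. Without oridonin replicate 2 the median was -0.07, and the log2 fold change of Ucp3 was 2.37. That fit sets 1 oridonin library against 1 WT library, so its spread comes from the vector replicates alone. The oridonin replicates of Ucp3 differed by a log2 of 1.00.

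Among the uptake genes, Cd36, Slc27a1 and Lpl were lower in every Tet2 heart than in the WT heart, while Fabp3 was higher in every one. Cd36 (chromosome 5, 17781690 to 17888801, GRCm38) encodes the main fatty acid translocase of the muscle cell surface. Its level was 2278 CPM in WT, 1463 and 1445 CPM with vector and 1772 and 1817 CPM with oridonin. The 3 groups did not overlap, and replicates differed little. The log2 fold change was -0.65 ± 0.16 (SE) for vector over WT (limma, adjusted p = 0.392) and 0.30 ± 0.13 for oridonin over vector (adjusted p = 1.00).

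Slc27a1 encodes the fatty acid transport protein FATP1, an acyl-CoA synthetase of the cell surface. It was measured at 187 CPM in WT, 130 and 111 CPM with vector, and 143 and 109 CPM with oridonin. The vector and oridonin libraries overlapped, and all 4 lay below WT. For Lpl the levels were 7521 CPM in WT, 4732 and 5508 CPM with vector and 4059 and 5910 CPM with oridonin. The oridonin libraries enclosed the vector libraries, with a log2 fold change of -0.06 and a 95% interval of -0.57 to 0.45. Fabp3 had 2776 CPM in WT, 2862 and 4312 CPM with vector and 3733 and 3345 CPM with oridonin, and its vector replicates differed more than the groups did.

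Of the triglyceride store genes, Pnpla2 was lower in all Tet2 hearts and the other 2 were not. Pnpla2 (chromosome 7, 141455198 to 141460743) encodes adipose triglyceride lipase, which opens stored triglyceride. Its level was 680 CPM in WT, 281 and 390 CPM with vector and 383 and 322 CPM with oridonin. Vector and oridonin overlapped, and no Tet2 library came near WT. The log2 fold change against WT was -1.04 ± 0.26 (SE) with vector (limma, adjusted p = 0.384) and -0.95 ± 0.26 with oridonin (adjusted p = 0.666).

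Plin5, whose product coats lipid droplets beside mitochondria, had 93.2 CPM in WT, 99.1 and 127 CPM with vector and 121 and 90.7 CPM with oridonin. Dgat2, encoding an enzyme of the last step of triglyceride synthesis, had 351 CPM in WT, 370 and 410 CPM with vector and 426 and 320 CPM with oridonin. In both genes the WT value lay inside the range of the Tet2 libraries.

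The genes of activation and the carnitine shuttle moved little between groups. In oridonin over vector all 6 had a log2 fold change above 0, where 40.2% of all genes did. Their median was 0.19, and 0 of the 6 reached an unadjusted p under 0.05. Cpt1a encodes the liver form of carnitine palmitoyltransferase 1, the step that malonyl-CoA inhibits. It had 39.5 CPM in WT, 50.6 and 38.7 CPM with vector and 56.7 and 48.4 CPM with oridonin, and the vector and oridonin groups overlapped. Cpt2, encoding the inner membrane transferase, had 212 CPM in WT, 190 and 199 CPM with vector and 215 and 223 CPM with oridonin. Both vector libraries lay below WT and both oridonin libraries above it. Slc25a20, the carnitine carrier, had 183 CPM in WT, 157 and 176 CPM with vector and 211 and 176 CPM with oridonin. Acsl1, the main acyl-CoA synthetase of heart, and Crat, carnitine acetyltransferase, lay between 469 and 1052 CPM in all libraries.

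Cpt1b encodes the muscle form of carnitine palmitoyltransferase 1. It was listed at 1.77 CPM in WT, 1.54 and 0.913 CPM with vector and 2.12 and 1.10 CPM with oridonin. Per kilobase, Cpt1a stood 15.0 to 29.5 times higher than Cpt1b. In GENCODE M21, 94.8% of the bases of the principal Cpt1b transcript (chromosome 15, 89416405 to 89425863) are also exonic in Gm44502, a gene on the same strand. Gm44502 had no row of its own under that name among the genes measured. The sources used here do not give how reads lying in both genes were counted, so the level of Cpt1b is uncertain.

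Of the 2 genes of malonyl-CoA control, Acacb was lower in every Tet2 heart. Acacb (chromosome 5, 114146535 to 114250761) encodes acetyl-CoA carboxylase 2, which makes malonyl-CoA at the mitochondrial surface. The WT heart had 548 CPM, the vector hearts 288 and 209 CPM and the oridonin hearts 270 and 286 CPM. The oridonin libraries lay within the vector range. The log2 fold change against WT was -1.16 ± 0.24 (SE) with vector and -0.98 ± 0.24 with oridonin (limma, adjusted p = 0.335 and 0.649). Mlycd, which encodes the decarboxylase that removes malonyl-CoA, had 119 CPM in WT, 91.7 and 115 CPM with vector and 108 and 94.4 CPM with oridonin. Its 4 Tet2 libraries lay below WT, but the log2 fold changes of -0.21 ± 0.24 with vector and -0.23 ± 0.24 with oridonin were smaller than their standard errors.

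The beta-oxidation cycle was the largest role group. In vector over WT 8 of its 9 genes had both vector libraries below WT, where 32.3% of all genes did, and the median log2 fold change was -0.26. In oridonin over vector 8 of 9 had a log2 fold change above 0, where 40.2% of all genes did, with a median of 0.10. Acadvl encodes the dehydrogenase for very long chains. It had 621 CPM in WT, 473 and 396 CPM with vector and 494 and 432 CPM with oridonin, so all Tet2 libraries lay below WT and the Tet2 groups overlapped. Its log2 fold change with vector was -0.52 ± 0.21 (SE; limma, adjusted p = 0.511). On the opposite strand, Dvl2 shares 45.0% of the bases of the Acadvl transcript. Whether the counting used strand is not stated, but Dvl2 itself stood at 4.99 to 6.76 CPM.

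Acadm, the medium-chain dehydrogenase, had 1314 CPM in WT, 1031 and 1105 CPM with vector and 1207 and 1185 CPM with oridonin. The 3 groups did not overlap, and oridonin lay between vector and WT. Acads, the short-chain dehydrogenase, had 228 CPM in WT, 147 and 180 CPM with vector and 199 and 167 CPM with oridonin, with overlapping Tet2 groups. The remaining dehydrogenase, Acadl for long chains, had 1158 CPM in WT, 983 and 947 CPM with vector and 1014 and 1021 CPM with oridonin, again without overlap.

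Hadha and Hadhb encode the subunits of the mitochondrial trifunctional protein, and they are head-to-head neighbours on chromosome 5 (Hadha 30118304 to 30155162, Hadhb 30155248 to 30184593). Hadha had 1642 CPM in WT, 1400 and 1308 CPM with vector and 1464 and 1462 CPM with oridonin. Hadhb had 1707 CPM in WT, 1369 and 1507 CPM with vector and 1499 and 1397 CPM with oridonin. Hadha separated the 3 groups, while the vector and oridonin libraries of Hadhb overlapped. Per kilobase Hadhb was 1.87 to 2.26 times Hadha in every library. A processed copy, Gm13910, matches 52.8% of the 100-base windows of Hadhb, so part of its reads may have been placed there or left out. Hadh, Echs1 and Acaa2, which serve the later steps, lay between 350 and 1076 CPM. Acaa2, the thiolase of the last step, had a log2 fold change of 0.00 with vector over WT.

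Among the auxiliary enzymes for unsaturated chains, Decr1, the dienoyl-CoA reductase, had 451 CPM in WT, 373 and 351 CPM with vector and 430 and 379 CPM with oridonin. It was below WT in all 4 Tet2 libraries, and both oridonin libraries were above both vector libraries. The isomerase gene Eci1 had 285 CPM in WT, 244 and 297 CPM with vector and 285 and 237 CPM with oridonin. Eci2, the second isomerase gene, had 123 CPM in WT, 122 and 134 CPM with vector and 139 and 117 CPM with oridonin. Both isomerase genes showed no order of the groups.

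The electron transfer flavoprotein is a dimer of the products of Etfa and Etfb, and Etfdh encodes the dehydrogenase that passes its electrons to ubiquinone. Etfdh had 711 CPM in WT, 568 and 555 CPM with vector and 609 and 625 CPM with oridonin, and its 3 groups did not overlap. Etfa had 719 CPM in WT, 682 and 655 CPM with vector and 615 and 577 CPM with oridonin. It was the only one of the 38 genes with WT highest, oridonin lowest and no overlap of the groups. Etfb had 60.6 CPM in WT, 57.8 and 81.8 CPM with vector and 91.3 and 65.9 CPM with oridonin, with wide replicate gaps. Per kilobase Etfa was 4.32 to 7.61 times Etfb. Of the Etfb transcript, 69.1% of bases are also exonic in Gm45233 on the same strand, which had no row under that name either. This leaves the level of Etfb as uncertain as that of Cpt1b.

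Acyl-CoA thioesterases split acyl-CoA back into fatty acid and coenzyme A. Acot1 (chromosome 12, 84009490 to 84018371), the cytosolic form, had 16.1 CPM in WT, 8.24 and 6.91 CPM with vector and 13.0 and 10.2 CPM with oridonin. Its neighbour Acot2 (83987861 to 83993873), the mitochondrial form, had 54.9 CPM in WT, 37.9 and 45.3 CPM with vector and 66.7 and 50.3 CPM with oridonin. In both genes both oridonin libraries lay above both vector libraries. In Acot1 all Tet2 libraries stayed below WT. The log2 fold change of oridonin over vector was 0.61 ± 0.25 (SE) for Acot1 and 0.48 ± 0.22 for Acot2, and both had an adjusted p = 1.00 (limma). These genes are near-identical in part: 16.5% of the 100-base windows of Acot1 also occur in Acot2, and 17.1% of those of Acot2 in Acot1. Their counts are therefore not fully separate, although the ratio of Acot2 to Acot1 per kilobase varied from 3.52 to 6.77. Acot13 was higher in all Tet2 libraries, at 198 CPM in WT, 206 and 249 CPM with vector and 204 and 203 CPM with oridonin.

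**Figure D4:**
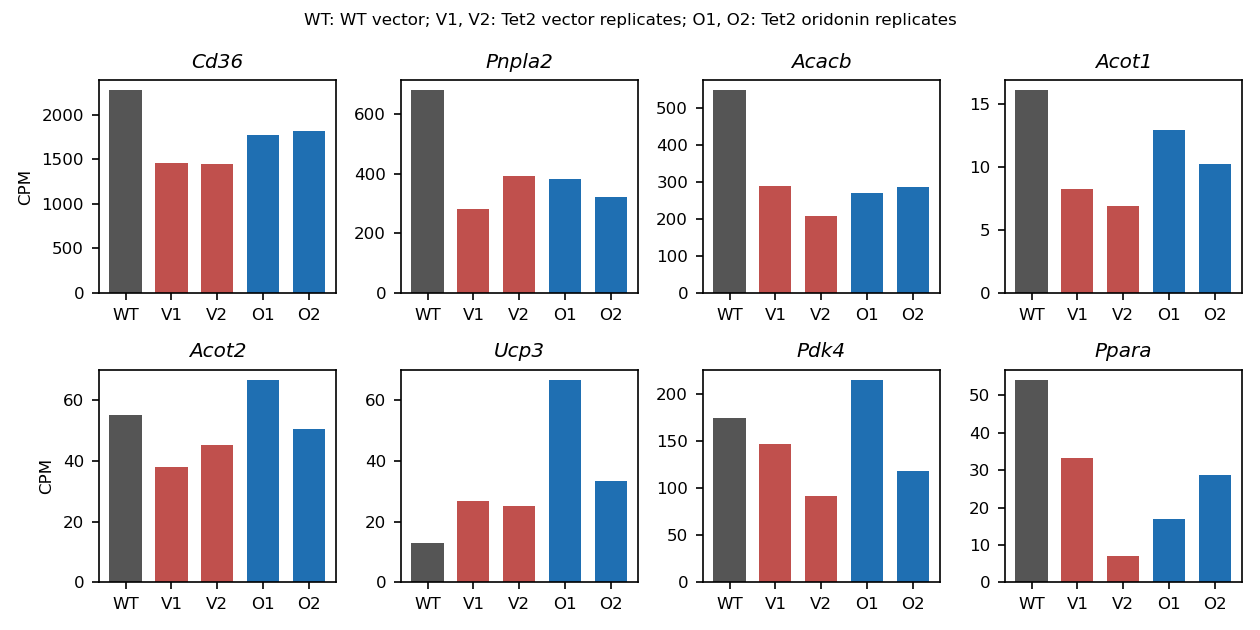
Levels in CPM (bars from 0, 1 bar per library) of 8 fatty acid genes in the WT, Tet2 vector (V1, V2) and Tet2 oridonin (O1, O2) libraries. Pnpla2 and Acacb are low in all 4 Tet2 libraries, Cd36 and Acot1 lie between vector and WT with oridonin, and in Ucp3, Pdk4 and Ppara the replicates of a group lie far apart.

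The regulators and the genes known as PPAR-alpha responders showed the widest fold changes and the widest replicate gaps. Ucp3 (chromosome 7, 100472990 to 100486432) encodes a mitochondrial carrier that fasting and fatty acids raise in muscle. It had 12.9 CPM in WT, 26.7 and 25.04 CPM with vector and 66.7 and 33.3 CPM with oridonin. The 3 groups did not overlap, and the oridonin replicates differed by a log2 of 1.00. Its log2 fold change was 1.01 ± 0.42 (SE) for vector over WT (limma, adjusted p = 0.526), 0.87 ± 0.34 for oridonin over vector (adjusted p = 1.00) and 1.87 ± 0.42 for oridonin over WT (adjusted p = 0.621).

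Pdk4, which encodes the kinase that closes pyruvate dehydrogenase when fat is burned, had 174 CPM in WT, 147 and 91.9 CPM with vector and 215 and 118 CPM with oridonin. Angptl4 had 2.66 CPM in WT, 4.06 and 2.02 CPM with vector and 5.40 and 4.53 CPM with oridonin. Both oridonin libraries of Angptl4 lay above both vector libraries, while those of Pdk4 overlapped with vector. In all 3 of Ucp3, Pdk4 and Angptl4 oridonin replicate 1 was the highest of the 5 libraries.

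Ppara itself had 54.2 CPM in WT, 33.1 and 7.04 CPM with vector and 17.0 and 28.8 CPM with oridonin. All Tet2 libraries were below WT, but the vector replicates differed by a log2 of 2.23, so that the fold change of -1.82 had a 95% interval of -3.92 to 0.28. Ppargc1a, which encodes PGC-1-alpha, had 97.3 CPM in WT, 102 and 67.6 CPM with vector and 55.5 and 91.9 CPM with oridonin, without order of the groups. Oridonin replicate 1, with the most Ucp3 and Pdk4, had less Ppara than any library but vector replicate 2.

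The replicate gaps of the fatty acid genes moved with transcript length, more in the vector group than in the oridonin group. Lengths are those of the principal GENCODE M21 transcript. Across the 38 genes, the difference of vector replicate 1 minus vector replicate 2 had a Spearman correlation with length of 0.72, and over 12302 tested genes (96.6%) it was 0.54. These values describe genes that share the same libraries. Oridonin replicate 2 minus replicate 1 gave 0.33 and 0.39. When all tested genes were divided by length into 3 equal classes, 21 fatty acid genes fell into the short class (721 to 2272 bases). Of these, 17 were lower in vector replicate 1 than in replicate 2, and 20 were lower in oridonin replicate 2 than in replicate 1. Of the 6 in the long class (4017 to 8788 bases), 5 were higher in vector replicate 1, while in the oridonin group 3 were higher and 3 lower in replicate 2 than in replicate 1. In the vector group the median difference of the short class was -0.16, as over all short genes. In the oridonin group the short, middle and long classes had -0.25, -0.18 and 0.04, against -0.08, 0.07 and 0.24 over all genes. There the fatty acid genes lay lower in replicate 2 than all genes of the same class. Against WT, vector replicate 2 had a correlation with length of -0.60 over the 38 genes, and the other Tet2 libraries had -0.11 to -0.24. With each library's trend over length removed, an alternative chosen after the data were seen, the median log2 fold change of the 38 was -0.31 for vector over WT and 0.18 for oridonin over vector. With that trend removed the log2 fold change of vector over WT was -0.86 for Acacb (-1.16 before), -1.17 for Pnpla2 and -0.62 for Cd36, and that of oridonin over vector was 0.94 for Ucp3. None of the 38 genes passed the FDR there (limma).

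**Figure D5:**
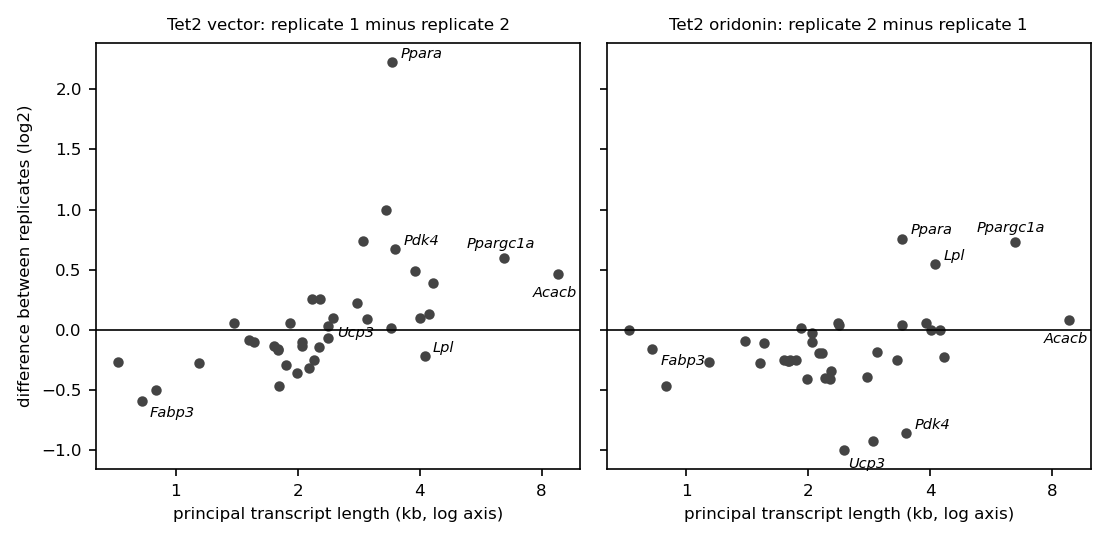
Difference between replicates (log2) of each of the 38 genes against the length of its principal transcript (kb, log axis), for the vector group (left, replicate 1 minus 2) and the oridonin group (right, replicate 2 minus 1). Short transcripts such as Fabp3 lie below 0 in both panels, and Ppara lies at 2.23 on the left.

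Other genes of the route, 79 in all from a wider list, gave 74 that were tested. In vector over WT 13 of them were lower and 2 higher at an unadjusted p under 0.05, against 4.53% and 5.06% of all genes. Their median log2 fold change was -0.21, and 0 passed the FDR in limma. Lower genes included Vldlr, the lipoprotein receptor (535 CPM in WT, 254 and 210 CPM with vector), Plin4, a droplet coat (267 CPM against 125 and 95.3), and Acss1, mitochondrial acetyl-CoA synthetase (627 CPM against 311 and 307). Klf15, a regulator of heart lipid use, had 98.9 CPM in WT and 50.7 and 42.7 CPM with vector. Higher genes were Fabp5 (23.5 CPM against 37.0 and 39.6) and Acsl5 (15.7 CPM against 23.5 and 24.3).

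In oridonin over vector the median of the 74 was 0.02, with 1 gene higher and 2 lower at an unadjusted p under 0.05 and 0 past the FDR. Those counts lie near the shares over all genes, 0.668% higher and 1.93% lower. Pdp2, a pyruvate dehydrogenase phosphatase, was higher, with 45.5 and 41.9 CPM against 32.6 and 28.7 CPM. Pdk3, a pyruvate dehydrogenase kinase, was lower, with 1.91 and 1.78 CPM against 5.54 and 2.93 CPM. Gpihbp1, which anchors lipoprotein lipase in capillaries, had 88.9 CPM in WT, 47.7 and 60.4 CPM with vector and 88.1 and 66.1 CPM with oridonin. In oridonin over WT 13 of the 74 were lower and 1 higher at that p (3.56% and 2.68% of all genes), with a median of -0.18 and 0 past the FDR.

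Markers of other cells moved with the groups as well. The summed level of 12 cardiomyocyte markers was 77751 CPM in WT, 79884 and 72798 CPM with vector and 79310 and 85054 CPM with oridonin, so the libraries read as heart muscle. The sum of 10 fibroblast markers was 1106 CPM in WT, 1740 and 1870 CPM with vector and 928 and 961 CPM with oridonin. That of 10 endothelial markers was 1223 CPM in WT, 1070 to 1076 CPM with vector and 1211 to 1270 CPM with oridonin. The 10 did not move together. The means of 7 lay below WT with vector and of 7 with oridonin (49.6% and 56.3% of all genes), and 3 lay above each time. Kdr, among those above, had 184 CPM in WT, 255 and 202 CPM with vector and 255 and 321 CPM with oridonin. Capillary cells also express Cd36, and Gpihbp1 is itself among the 10 endothelial markers. Macrophage markers (10) summed to 406 CPM in WT, 722 and 473 CPM with vector and 443 and 432 CPM with oridonin. Red cell markers summed to 368 CPM in WT, 247 and 147 CPM with vector and 387 and 319 CPM with oridonin, so that their vector libraries were lowest, as for Cd36. All 4 red cell genes tested were lower with vector than in WT, 3 of them at an unadjusted p under 0.05 (limma). Over all genes those shares were 49.6% and 4.53%. All 4 were higher with oridonin than with vector, 2 of them at that p, against 40.2% and 0.668% of all genes. These counts describe genes that share the same libraries. Vector replicate 1 stood apart by its 7 atrial markers, at 1104 CPM against 29.8 to 104 CPM elsewhere. Of 10 fat cell markers, 0 were at 0 counts there and 1 was at 0 in oridonin replicate 2, against 3 or 4 in the other 3 libraries, and Adipoq was at most 1.09 CPM. The sum of the 10 went another way, with vector replicate 1 lowest. It was 586 CPM in WT, 530 and 759 CPM with vector and 724 and 640 CPM with oridonin. Without vector replicate 1, 29 of the 38 fatty acid genes were below WT and 25 were higher with oridonin, where 53.8% and 51.4% of all genes were. Of 10 genes that glucocorticoids induce, 9 were lower with vector than in WT, where 49.6% of all genes were. The sum of the 10 was 816 CPM in WT and 457 to 523 CPM in the Tet2 libraries. Of 13 circadian clock genes tested, 5 were higher and 8 lower with vector than in WT (50.4% and 49.6% of all genes). Dbp had 37.0 CPM in WT, 85.5 and 98.9 CPM with vector and 123 and 95.0 CPM with oridonin. Bmal1 had 7.55 CPM in WT, 1.29 and 3.72 CPM with vector and 2.53 and 1.51 CPM with oridonin. The part of these markers and of both lists in the fatty acid values was not tested.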

How the data were processed

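Per the labels' protocols, poly-A RNA of whole hearts was made into NEBNext Ultra libraries. Per the submitters' processing notes, the genome build was mm10. Aligner, counter, annotation and use of strand: not given in the sources used here. Log2 values were deposited by the authors, as log2 of the count plus 0.5, scaled to CPM, which was read from the values. Each deposited Tet2 column mixed 0.75 of its own log2 value with 0.25 of that of the other replicate. Undoing this gave whole counts (within 0.01) for at least 99.9% of genes per Tet2 column, against 9.06% to 10.4% before. The WT column gave whole counts for 33.5% of genes and stayed as deposited. It may be a mix with values that are no column of the table, which was not tested. All 5 columns were tied to samples through the labels, and 0 were left without one. The sample titles name 1 or 2 months where all other labels give 2 months, and that number was read as the replicate.

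Limma 3.58.1 (trend, robust) was fitted in R 4.3.3 to the log2 CPM of all 5 libraries with group as the only term, for 12734 genes that reached 1 CPM in 2 libraries or more, and Benjamini-Hochberg adjustment ran over all of them within each comparison at an FDR of 0.05. There are 2 residual degrees of freedom. The procedure was tested on simulated counts, where the blend was undone by its exact inverse. Those counts had no blend in the WT column and no trend over length, so that test does not cover these features. The 38 genes, the wider route list and the marker lists were chosen with earlier results of these data known. Values in every library are given, in each role group, for up to 4 genes with the smallest unadjusted p over the comparisons and for neighbouring or similar pairs, and of each wider list up to 2 genes a direction, some of which are not reported here. Acadl was added after its values were seen. Alternatives changed the values tested, the test, filter, offset, scaling, block and libraries. GENCODE M21 (GRCm38) gave positions and lengths, and RefSeq gave promoters.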

Additional observations from a re-analysis of the deposited data

How the results depend on the processing

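Among the alternatives that kept 2 libraries in each Tet2 group, fatty acid genes passed the threshold only with the deposited values. No list median changed sign under any alternative. Fitted to the deposited values with the mix left in, which makes replicate gaps 0.5 times as large, 11 genes passed in vector over WT (10 lower and Ucp3 higher), as did 18.4% of all genes, and 5 passed in oridonin over WT (Slc27a1, Lpl, Pnpla2 and Acacb lower, Ucp3 higher), with 7.86% of all genes. For vector over WT the list median was -0.127 with the mitochondrial genome out of the total, -0.0927 after quantile normalization and -0.312 with the length trend removed, and leaving out 1 library gave -0.265 to -0.219. For oridonin over vector it was 0.180 with the length trend removed, and 0.0504 (without oridonin replicate 1) to 0.149 with 1 library left out. For oridonin over WT it was -0.0380 with the mitochondrial genome out of the total and -0.000619 after quantile normalization. With 1 library left out it was -0.175 to -0.0665 (without oridonin replicate 2). Leaving out 1 Tet2 library leaves 1 library in its group, so only effect sizes are given for those fits. The cause of these shifts was not tested.

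With the replicate number as a block, 0 of the 38 genes passed in each comparison, and 10, 9 and 6 of all genes did in the order of the report, with list medians of -0.184, 0.116 and -0.115. Same-numbered replicates of the Tet2 groups deviated from their group means with r = -0.30 over 12734 genes. With 1 difference per group and genes that share the same libraries, this cannot show whether the numbers pair the samples. A crossed block (vector 1 with oridonin 2) was added after the data were seen. With it 43 genes passed in oridonin over vector, 0 of them fatty acid genes. With 2 residual degrees of freedom and 1 WT library, the precision is limited by the number of libraries, and for Cpt1b and Angptl4 by counts as well.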
